A study of Sus scrofa with 23 samples.

Results

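The complement genes described here are C1QA, C1QB, C1QC, C3, C1R, C1S, SERPING1, CFI and C5AR1, which were picked by name from a gene count table of pig prefrontal cortex. Of these 9 genes, 6 have a row under their pig Ensembl symbol among the 25880 genes of the table, and all 6 passed the filter on low counts, which kept 15049 genes. C1R, C1S and C5AR1 have no row under their symbol, so no level is given for them by name. The 23 libraries come from 23 adolescent female Danish slaughter pigs of 20 kg, each injected once into a vein while awake, either with psilocybin at 0.08 mg/kg or with saline. The animals were killed with pentobarbital 1 day or 1 week after the injection. The groups are psilocybin 1 day (6 animals), saline 1 day (5 animals), psilocybin 1 week (6 animals) and saline 1 week (6 animals), and the series states 6 animals in each. The labels also place every animal in batch 1 or batch 2 without saying what the batch was. Each group of 6 has 3 animals per batch, and saline 1 day has 3 in batch 2 and 2 in batch 1. The question the groups pose for these genes is whether complement RNA in the cortex differed after psilocybin, the prodrug of the serotonin receptor agonist psilocin, at either time.

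Complement is a cascade of plasma proteins that tags and lyses targets, and the brain makes many of its parts locally. The recognition molecule C1q is built from A, B and C chains, which in the rodent and human brain come mainly from microglia; with its proteases C1r and C1s it starts the classical pathway, which leads to cleavage of C3, the protein on which all complement pathways converge. C1 inhibitor, encoded by SERPING1, blocks C1r and C1s, factor I, encoded by CFI, degrades active C3 and C4 fragments, and the receptor encoded by C5AR1 binds the released peptide C5a. In the developing mouse visual system, C1q and C3 mark synapses for removal by microglia.

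Total assigned counts per library ranged from 9975409 to 18654626 in psilocybin 1 day, from 11453787 to 17206665 in saline 1 day, from 9504421 to 13567768 in psilocybin 1 week and from 10570456 to 16212439 in saline 1 week. All 8 neuron, 14 microglia and 9 astrocyte markers that have a row were kept by the filter. Batch was taken out of log2 CPM before a principal component analysis. On its first component, which held 21.3% of the variance left over genes, 3 libraries had the highest values. They were animal 5 of saline 1 day (40.06), animal 1 of saline 1 week (37.75) and animal 6 of psilocybin 1 week (28.34). They are called the 3 libraries that stood apart. Animal 1 of psilocybin 1 day followed at 20.13, and no test set the cut between them. Calls of the 6 genes, and signs of psilocybin over saline at either time, that change without them are given below with and without them. Levels are in CPM (counts scaled to library totals, adjusted by TMM, which corrects for differences in library composition) where animals are compared, and in TPM (counts per exon length, scaled to a common total) where genes are compared. In bulk tissue, fewer cells of a type and less RNA per cell cannot be told apart.

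The 6 genes were all measured well above the filter, with 219.5 counts as the lowest value of any of them in any library (CFI) and 870 as the highest (C3). The C1q chains lie side by side on the plus strand of chromosome 6 of the susScr11 build. C1QA (ENSSSCG00000003524) spans chr6:80586183-80591269, C1QC (ENSSSCG00000038706) starts 929 bases further on and spans chr6:80592198-80599440, and C1QB (ENSSSCG00000033512) follows after 1863 bases at chr6:80601303-80608011. C3 (ENSSSCG00000013551) spans chr2:72431163-72471564 on the plus strand, SERPING1 (ENSSSCG00000013181) chr2:13322843-13338996 on the minus strand and CFI (ENSSSCG00000009138) chr8:112433640-112470946 on the plus strand. These are spans of the listed exons. None of the 6 overlaps another gene of the table, although their counts held fractions of split reads in 2 (C1QB) to 15 (C1QC) of the 23 libraries.

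Per length of listed exons the 6 genes had similar levels. This length merges all exons listed for a gene. For C1QA its 3102 bases exceed the gene's whole span in the RefSeq annotation, chr6:80586259-80589213. The order of genes by TPM therefore depends on which exons are listed. C1QB was highest at 29.2 ± 6.50 TPM (SD, n = 23 animals), followed by C1QC at 27.5 ± 5.92, CFI at 24.5 ± 5.05, C1QA at 23.7 ± 4.87, SERPING1 at 23.4 ± 3.03 and C3 at 18.9 ± 4.39 TPM. C1QB exceeded C1QC in 17 of 23 animals, C1QC exceeded CFI in 16, CFI exceeded C1QA in 13 and C1QA exceeded SERPING1 in 11. The order of these neighbours thus changed between animals, and their means differed by less than their SDs. The step from SERPING1 to C3 was in one direction in 21 of 23 animals. The C1q chains kept nearly fixed proportions. Of the summed TPM of the 3 chains, C1QA took 29.5% ± 1.63, C1QB 36.3% ± 1.62 and C1QC 34.2% ± 1.76 (SD, n = 23), although each chain's own CPM varied over animals with a coefficient of variation between 24.2% and 24.9%. SERPING1 varied least, at 11.4%, with CFI at 17.5% and C3 at 21.7%.

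At 1 day, none of the 6 genes passed the test between psilocybin and saline. The background was 0% of the 15049 genes, so no gene of the table passed either. C1QA ranged from 16.4 to 38.0 CPM (median 31.5) in the 6 psilocybin animals, against 34.8, 43.3, 19.2, 30.6 and 25.7 CPM in the 5 saline animals. C1QB ranged from 23.4 to 52.0 CPM (median 42.6) after psilocybin, against 47.2, 62.0, 26.8, 40.5 and 32.9 CPM after saline. C1QC ranged from 24.8 to 59.2 CPM (median 44.6) after psilocybin, against 50.5, 55.3, 29.1, 45.5 and 31.5 CPM after saline. The groups overlapped for each chain, and 1 psilocybin animal, number 4, was the lowest of its group for all 3. It was also the lowest of its group in CPM for C3, SERPING1 and CFI, and its library had the highest total, at 18654626 counts. The log2 fold changes, psilocybin over saline, were -0.09 for C1QA (95% interval -0.41 to 0.23), -0.06 for C1QB (-0.37 to 0.25) and -0.02 for C1QC (-0.32 to 0.29), each with an adjusted p of 1 in edgeR's quasi-likelihood test. These negative signs rested on animal 4. Without it C1QA was at 0.016 and C1QB at 0.04, and 0 of the 6 genes were negative.

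C3, the central component, ranged from 28.8 to 53.5 CPM (median 42.7) 1 day after psilocybin, against 35.8, 61.4, 31.2, 48.7 and 26.7 CPM after saline. All 6 psilocybin animals lay inside the range of the saline animals, and the log2 fold change was 0.01 (-0.32 to 0.34). The regulator SERPING1 ranged from 34.9 to 47.9 CPM (median 37.3) after psilocybin, against 36.1, 43.6, 36.6, 42.8 and 32.3 CPM after saline, with 0.01 (-0.18 to 0.19) on the log2 scale. CFI ranged from 17.4 to 34.5 CPM (median 28.5) after psilocybin, against 20.5, 21.8, 30.4, 29.6 and 21.1 CPM after saline. Its log2 fold change of 0.13 (-0.17 to 0.43) was the furthest from 0 of the 6 at this time and was -0.02 in batch 2 and 0.36 in batch 1. The adjusted p of C3, SERPING1 and CFI was 1 in edgeR's test.

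At 1 week the result was again 0 of 6, beside a background of 0% of genes. C1QA ranged from 24.0 to 42.9 CPM (median 34.5) after psilocybin, against 26.5 to 45.3 CPM (median 29.7) after saline. C1QB ranged from 34.3 to 62.2 CPM (median 41.6) after psilocybin, against 33.0 to 58.4 CPM (median 39.0) after saline. C1QC ranged from 29.5 to 61.6 CPM (median 43.0) after psilocybin, against 33.8 to 55.0 CPM (median 41.8) after saline. The groups of 6 overlapped for each chain, and the log2 fold changes were 0.08 for C1QA (-0.23 to 0.38), 0.11 for C1QB (-0.19 to 0.40) and 0.08 for C1QC (-0.21 to 0.37).

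C3 ranged from 36.2 to 60.5 CPM (median 46.2) 1 week after psilocybin, against 33.6 to 53.5 CPM (median 43.0) after saline. SERPING1 ranged from 30.7 to 45.8 CPM (median 38.8) after psilocybin, against 36.8 to 47.6 CPM (median 39.0) after saline, and CFI from 25.9 to 35.7 CPM (median 33.3) after psilocybin, against 26.3 to 32.9 CPM (median 30.0) after saline. These groups overlapped too. The log2 fold changes were 0.16 for C3 (-0.15 to 0.48), -0.05 for SERPING1 (-0.22 to 0.13) and 0.10 for CFI (-0.18 to 0.38). For all 6 genes the adjusted p was 1 in edgeR's test. C3 was above 0 in both batches, at 0.29 in batch 2 and 0.03 in batch 1.

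**Figure D1:**
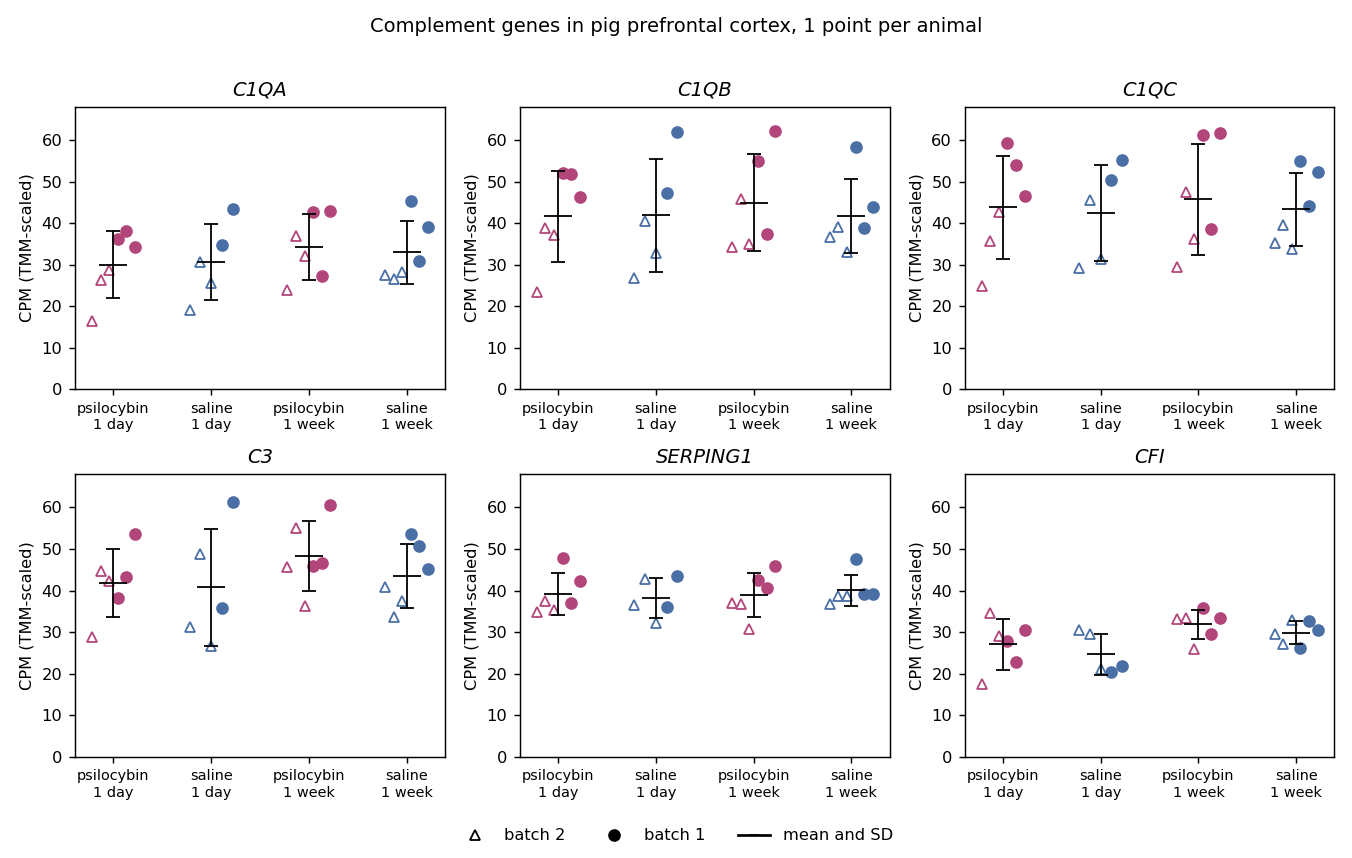
CPM of the 6 complement genes in each animal, with psilocybin beside saline at 1 day and at 1 week, triangles for batch 2 and circles for batch 1, and the mean and SD of each group. The groups overlap in every panel; CFI, for example, spans 25.9 to 35.7 CPM in psilocybin 1 week and 26.3 to 32.9 CPM in saline 1 week.

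The intervals give, for each gene taken alone, the treatment differences compatible with the fit over all libraries. They are not limits of detection, and they do not exclude larger differences. Over the 6 genes, the interval end furthest from no difference was 1.35-fold at 1 day and 1.39-fold at 1 week. Without overlap between the groups were 0 of the 6 genes at either time, beside 0.126% of all genes at 1 day and 0.0465% at 1 week. At an unadjusted p under 0.05, edgeR's test held 0 of the 6 at either time, beside 2.83% and 1.99% of all genes at 1 day and 1 week, and at an adjusted p under 0.05 DESeq2 and limma-voom also called 0 of the 6 and 0 of all genes. The median log2 fold change of the 6 genes was -0.005 at 1 day and 0.09 at 1 week, beside 0.00 at both times over all genes tested.

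Whether the psilocybin effect differed between the times was tested directly. The change of the effect, 1 week minus 1 day, lay between -0.05 (SERPING1) and 0.17 (C1QB) on the log2 scale, and 0 of 6 genes passed, beside a background of 0%. Averaged over both times, the psilocybin effect lay between -0.02 (SERPING1) and 0.12 (CFI), again with 0 of 6 passing beside 0%. At an unadjusted p under 0.05 there were 0 of 6 in both, beside 2.02% of all genes for the change and 3.04% for the average, and DESeq2 and limma-voom called 0 of 6 in both. The C1q chains were within 0.03 of 0 in this average, and C3 was at 0.09 (-0.14 to 0.32). Every comparison of psilocybin with saline at a given time uses the same animals as the average and the change, so these values do not stand apart from one another.

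Time after the injection was compared within each treatment. After psilocybin, CFI averaged 31.9 ± 3.52 CPM at 1 week and 27.0 ± 6.10 CPM at 1 day (SD, n = 6 each). After saline it averaged 29.8 ± 2.76 CPM at 1 week (SD, n = 6) and 24.7 ± 4.88 CPM at 1 day (SD, n = 5). The log2 differences, 1 week over 1 day, were 0.24 (-0.04 to 0.53) after psilocybin and 0.28 (-0.02 to 0.58) after saline, the largest of the 36 values that the 6 genes had in the 6 comparisons between groups. Neither passed edgeR's test, with an adjusted p of 0.999 after psilocybin and 1 after saline. After saline, CFI was at 0.115 in batch 2 and 0.497 in batch 1, where saline 1 day has 2 animals. After psilocybin it was at 0.189 in batch 2 and 0.275 in batch 1, and at 0.133 without animal 4 of psilocybin 1 day. C1QA and C3 had log2 differences of 0.23 and 0.21 after psilocybin and of 0.06 each after saline, and 0 of 6 genes passed in either treatment, beside a background of 0% in both. By edgeR, 0 of the 6 had an unadjusted p under 0.05 in either, beside 3.18% of all genes after psilocybin and 2.01% after saline, and DESeq2 and limma-voom called 0 of the 6 in either. Without the 3 libraries that stood apart, edgeR gave 1 of the 6 an unadjusted p under 0.05 after psilocybin, beside 952 of 15088 genes. CFI was then at 0.305 after psilocybin (adjusted p 0.771 in edgeR's test), and 0 of 6 passed.

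**Figure D2:**
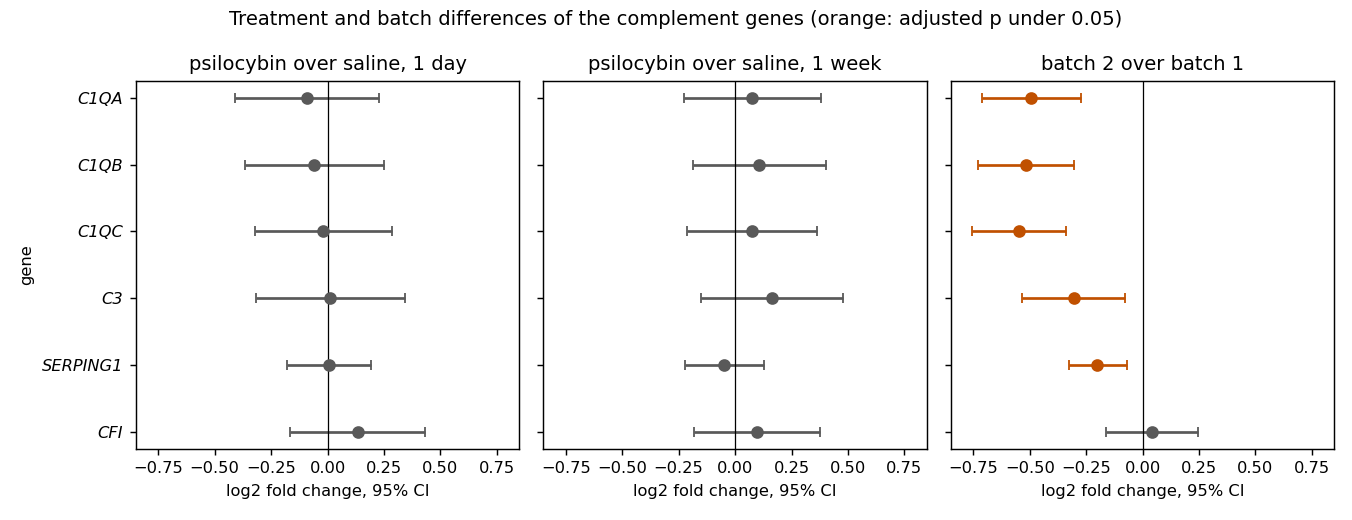
Log2 fold changes of the 6 complement genes with their 95% intervals, for psilocybin over saline at 1 day and at 1 week and for batch 2 over batch 1. Every interval of the treatment comparisons includes 0, while the batch intervals of C1QA, C1QB, C1QC, C3 and SERPING1 (orange) lie below it and that of CFI includes it.

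For the C1q chains, the difference between the batches was larger than any of their differences between the groups. In batch 2, 5 of the 6 genes were lower than in batch 1, and CFI was not called. The background of this comparison was 32.9% of genes called, 16.8% lower and 16.1% higher in batch 2. C1QA averaged 26.9 ± 5.45 CPM in batch 2 (SD, n = 12) and 37.7 ± 5.66 CPM in batch 1 (SD, n = 11), a log2 fold change of -0.49 ± 0.11 (SE) with an adjusted p of 0.0016 in edgeR's test. C1QB averaged 35.3 ± 6.01 CPM in batch 2 and 50.5 ± 8.60 CPM in batch 1, at -0.52 ± 0.10 (adjusted p 0.000926). C1QC averaged 35.9 ± 6.85 CPM in batch 2 and 52.6 ± 7.21 CPM in batch 1, at -0.55 ± 0.10 (adjusted p 0.00055). For each chain, 0 of the 12 batch 2 animals exceeded the median of batch 1, and the batch 2 mean was the lower one in 4 of 4 groups.

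C3 averaged 39.3 ± 8.50 CPM in batch 2 and 48.6 ± 8.23 CPM in batch 1, at -0.31 ± 0.11 with an adjusted p of 0.0363 in edgeR's test. SERPING1 averaged 36.5 ± 3.11 CPM in batch 2 and 42.0 ± 4.02 CPM in batch 1, at -0.20 ± 0.06 with an adjusted p of 0.017. Both were lower in batch 2 in 4 of 4 groups. Without the 3 libraries that stood apart, C3 was at -0.20 (adjusted p 0.153) and SERPING1 at -0.12 (adjusted p 0.124), and neither passed. CFI averaged 28.7 ± 5.18 CPM in batch 2 and 28.4 ± 5.02 CPM in batch 1, at 0.04 ± 0.10 (adjusted p 0.771).

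Microglial markers moved with the batches in the same direction. Of 14 microglia markers, 10 were called lower in batch 2 and 0 higher, beside 16.8% and 16.1% of all genes. The median log2 fold change of these markers was -0.41, beside -0.02 over all genes. Their summed level ranged from 172 to 341 CPM in batch 2 and from 272 to 386 CPM in batch 1, and none had a median count of 0. CX3CR1 and CSF1R, both receptors of microglia, were at -0.54 and -0.51 on the log2 scale (adjusted p 0.0128 and 0.000651 in edgeR's test). Blood cell markers were also lower in batch 2, with 2 of 4 tested markers called and a summed level of 29.3 to 94.5 CPM (median 62.9) in batch 2 against 42.9 to 522 CPM (median 125) in batch 1; the neutrophil marker S100A12 had a median count of 0. Other cell types were mixed. In batch 2, 4 of 9 astrocyte markers were called higher and 1 lower, and 2 of 8 neuron markers were higher and 2 lower. Of 9 fibroblast and meningeal markers 2 were higher and 0 lower, and of 8 endothelial and mural markers 1 was higher and 0 lower. Of 6 oligodendrocyte markers 0 were called. Of 4 hepatocyte markers 1 was lower and 0 higher, with a median log2 fold change of -0.2. Of 3 choroid plexus and ependyma markers 0 were called, with a median of -0.203. The part of any of these cells in the difference of the complement genes was not tested. Between the treatments, 0 of the 14 microglia markers passed at either time, beside 0% of genes, and their summed medians were 293 CPM in psilocybin 1 day, 275 in saline 1 day, 307 in psilocybin 1 week and 288 in saline 1 week.

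**Figure D3:**
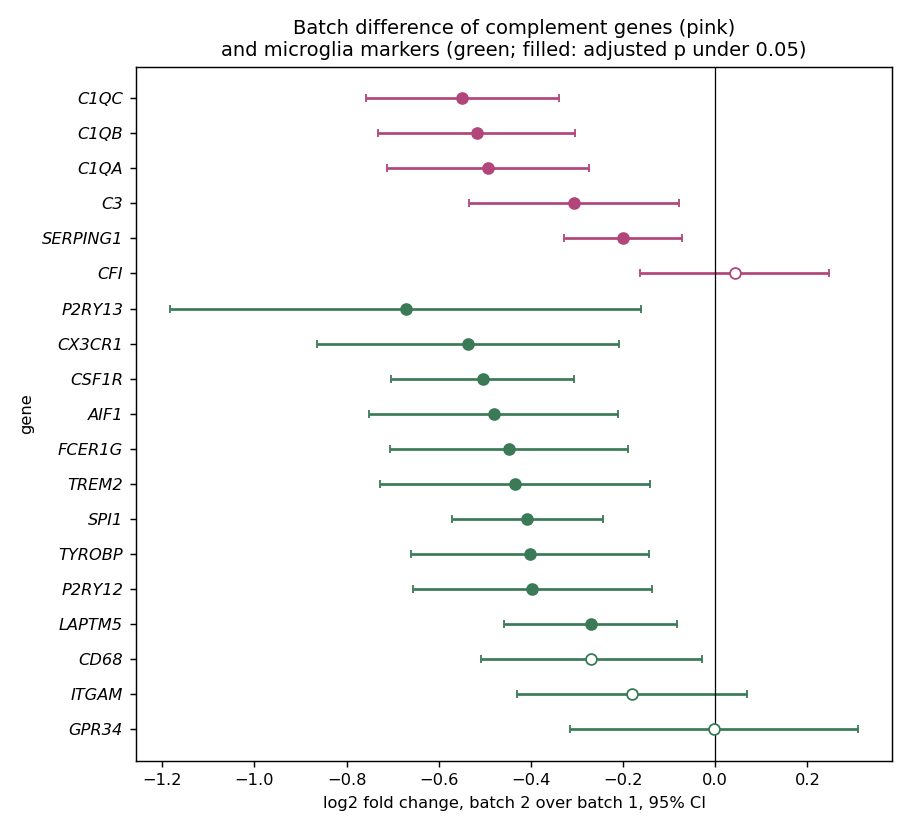
Log2 fold change of batch 2 over batch 1 with its 95% interval, for the 6 complement genes (pink) and 13 of the 14 microglia markers (green), with filled points where edgeR's adjusted p was under 0.05. C1QA, C1QB, C1QC, C3 and SERPING1 and 10 of the microglia markers are filled and lie below 0, and CFI is open at 0.04.

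Among animals, the C1q chains varied together. After the means of group and batch were taken out of log2 CPM, Pearson's r over the 23 animals was 0.91 between C1QA and C1QB (Spearman's rho 0.84), 0.90 between C1QA and C1QC (rho 0.83) and 0.88 between C1QB and C1QC (rho 0.86). Each had a permutation p of 1e-05, the smallest that 100000 draws can give, and 5e-05 after Benjamini-Hochberg adjustment over the 15 pairs of genes. Without the 2 animals farthest from the median these r were 0.84, 0.82 and 0.80, and within the batches they lay between 0.88 and 0.96. The chains are neighbours on chromosome 6 and share every library, so the pairs are not independent of one another. The draws shuffled the residuals freely over animals and did not allow for the group and batch means already taken out. Every permutation p given here can therefore be too small.

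C3 varied with the chains less closely. Its r was 0.60 with C1QB (rho 0.62, permutation p 0.00259, adjusted 0.00971), 0.52 with C1QA (rho 0.57, permutation p 0.0102, adjusted 0.0305) and 0.47 with C1QC (rho 0.42, permutation p 0.0239, adjusted 0.0386; for rho, adjusted 0.063). Without the 2 farthest animals, r was 0.54 with C1QB and 0.43 with C1QA. With C1QC, C3 had an r of 0.73 in batch 2 and 0.09 in batch 1, and 0.36 without the 2 farthest animals. C3 also varied with SERPING1 (r 0.51, rho 0.47, permutation p 0.0143, adjusted 0.0357) and with CFI (r 0.49, rho 0.49, permutation p 0.0177, adjusted 0.038). For C3 with SERPING1, r was 0.80 in batch 2, 0.45 in batch 1 and 0.38 without the 2 farthest animals. For C3 with CFI it was 0.78 in batch 2, 0.22 in batch 1 and 0.55 without the 2 farthest animals.

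The regulators were less closely tied to the C1q chains. SERPING1 had an r of 0.46 with C1QB (rho 0.62, permutation p 0.0257, adjusted 0.0386) and of 0.47 with CFI (rho 0.45, permutation p 0.025, adjusted 0.0386), whereas its r of 0.24 with C1QA and 0.40 with C1QC did not pass (adjusted permutation p 0.293 and 0.0793), although its rho of 0.50 with C1QC did (adjusted 0.0332). With C1QB its r was 0.43 in batch 2, 0.66 in batch 1 and 0.52 without the 2 farthest animals. With CFI its r was 0.61 in batch 2, 0.18 in batch 1 and 0.33 without the 2 farthest animals. CFI had r between 0.21 and 0.32 with the chains, none of which passed by permutation. Over all 15 pairs, r passed in 10 by these permutation p, which can be too small, so the pairs near the threshold are not secure.

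**Figure D4:**
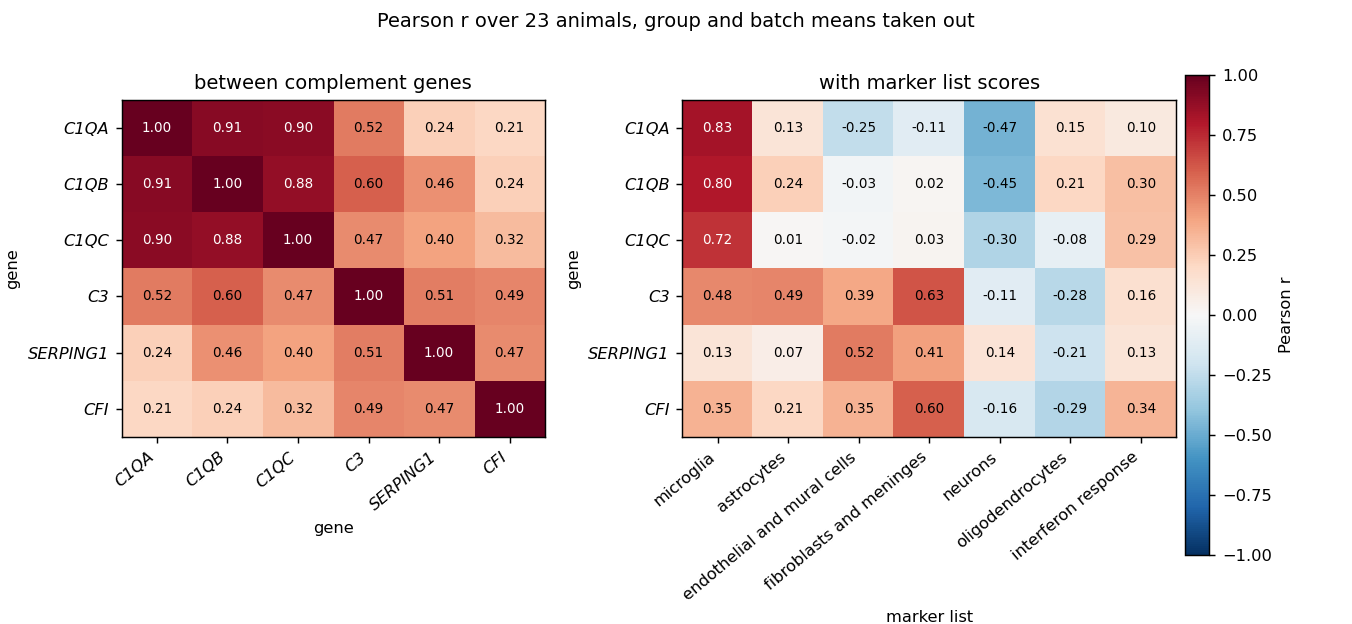
Pearson's r over 23 animals between the 6 complement genes, and of each with the mean level of marker lists, after group and batch means were taken out of log2 CPM. The block of C1QA, C1QB and C1QC holds the highest values between genes, from 0.88 to 0.91, and their highest values with a list are those with microglia, from 0.72 to 0.83.

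Set against marker lists over all 23 animals, the C1q chains were closest to microglia and C3 and CFI to fibroblasts and meninges. For C3 the closest list differed between the batches. The mean of the 14 microglia markers had an r of 0.83 with C1QA (rho 0.62), 0.80 with C1QB (rho 0.64) and 0.72 with C1QC (rho 0.51). The permutation p, adjusted over 42 pairs of a gene and a list, was 0.00021 for r with C1QA and C1QB and 0.00154 with C1QC (raw 1e-05, 1e-05 and 0.00011), and for rho it was 0.0261, 0.0261 and 0.124. Without the 2 farthest animals these r were 0.71, 0.66 and 0.53, and they were between 0.74 and 0.89 in batch 2 and between 0.71 and 0.74 in batch 1. The mean of 9 fibroblast and meningeal markers had an r of 0.63 with C3 (rho 0.71, permutation p 0.00121, adjusted 0.0127) and of 0.60 with CFI (rho 0.61, permutation p 0.00236, adjusted 0.0198). These were 0.68 and 0.63 without the 2 farthest animals. With C3 the r was 0.86 in batch 2 and 0.46 in batch 1, and with CFI it was 0.74 in batch 2 and 0.57 in batch 1. C3 had an r of 0.49 with the astrocyte list and 0.48 with the microglia list, and SERPING1 had 0.52 with the endothelial and mural list, none of which passed by permutation (adjusted p 0.103, 0.103 and 0.0633). With the astrocyte list the r of C3 was 0.25 in batch 2 and 0.81 in batch 1, where it was above that with fibroblasts and meninges. With the endothelial and mural list the r of SERPING1 was 0.73 in batch 2, 0.26 in batch 1 and 0.34 without the 2 farthest animals. With fibroblasts and meninges the r of SERPING1 was 0.41 (adjusted permutation p 0.2), and was 0.90 in batch 2 and 0.07 in batch 1. With 18 interferon response genes the r of the 6 genes lay between 0.10 (C1QA) and 0.34 (CFI), and none passed.

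The genes whose residual level followed each complement gene most closely were then named, as a description over 23 animals among 12489 genes. Closest to the mean of the C1q chains were LAT2, an adaptor protein of immune cells (r 0.825), TLR9, a receptor for unmethylated DNA (0.819), ITGB2, the beta subunit of complement receptor 3 (0.819), CSF1R, the receptor that microglia need to survive (0.803), and CX3CR1, the fractalkine receptor of microglia (0.796). Closest to C3 were DOCK2, an activator of Rac in leukocytes (0.801), CPED1 (0.791) and TENT5C, a poly(A) polymerase (0.779). SERPING1 was followed by GNLY, which in human encodes a granule protein of cytotoxic lymphocytes (0.734), CD14, the lipopolysaccharide co-receptor (0.733), and MXRA8 (0.713). CFI was followed by ZFP36L2, an mRNA-destabilising protein (0.785), TBC1D2B (0.753) and HK2, a hexokinase (0.749). The top of a search over so many genes is high by its choice, and these r have no test.

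For the missing members, the RefSeq annotation of Sscrofa11.1 was used to see which rows of the table lie at their places. These rows were chosen by position after the table was seen, and the table gives them no symbol. ENSSSCG00000000675, at chr5:63644321-63681418 on the plus strand, covers 98.0% of the RefSeq span of C1R and 99.6% of that of C1S, so it cannot tell those genes apart, and it shares its span with 2 other rows. One of them, ENSSSCG00000039847 on the minus strand, covers 100% of C1S with a mean count of 313.7, against 238.4 for ENSSSCG00000000675. It was left out because its nearest edge lay 2603 bases from that of C1S, and at most 1000 were allowed. Reads over both rows were split, so ENSSSCG00000000675 can lack part of the C1S reads. The level of ENSSSCG00000000675 was 8.50 ± 2.02 TPM (SD, n = 23), below C3 in 23 of 23 animals. It averaged 17.7 ± 4.69 CPM in psilocybin 1 day (SD, n = 6) and 18.0 ± 1.47 CPM in saline 1 day (SD, n = 5), and 20.3 ± 3.14 CPM in psilocybin 1 week and 20.0 ± 4.04 CPM in saline 1 week (SD, n = 6 each). The log2 fold changes, psilocybin over saline, were -0.02 (-0.35 to 0.31) at 1 day and 0.02 (-0.30 to 0.33) at 1 week. Between the batches it was at 0.06 (adjusted p 0.707 in edgeR's test).

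ENSSSCG00000029371, at chr6:53097142-53111565 on the plus strand, covers 100% of the RefSeq span of C5AR1. Its level was 6.63 ± 1.56 TPM (SD, n = 23), on a mean count of 88.6. It averaged 7.59 ± 2.79 CPM in psilocybin 1 day (SD, n = 6) and 7.20 ± 1.86 CPM in saline 1 day (SD, n = 5), and 7.39 ± 1.51 CPM in psilocybin 1 week and 6.99 ± 1.25 CPM in saline 1 week (SD, n = 6 each). The log2 fold changes were -0.01 (-0.43 to 0.42) at 1 day and 0.08 (-0.33 to 0.48) at 1 week. Between the batches it was at -0.40 with an adjusted p of 0.0358 in edgeR's test, and this call was lost in 12 of 30 alternatives (adjusted p at most 0.0721). These were the fit with no filter and the fits without animal 1, 2, 3, 4 or 5 of psilocybin 1 day, 1 or 4 of psilocybin 1 week, 2, 3 or 5 of saline 1 day, or 5 of saline 1 week.

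Of 43 other complement genes listed by role, 33 have a row and 25 were tested. None passed between psilocybin and saline at 1 day or at 1 week, beside 0% of all genes. The log2 fold change was positive for 14 and negative for 11 at 1 day, with a median of 0.06, and positive for 18 and negative for 7 at 1 week, with a median of 0.18, beside 51.4% and 48.8% of all genes positive at 1 day and 1 week. At an unadjusted p under 0.05 there was 1 of the 25 genes at each time, beside 2.83% of all genes at 1 day and 1.99% at 1 week. They were MASP1, a protease of the lectin pathway, at 0.34 (0.03 to 0.64) at 1 day, and C5, the precursor of C5a, at 0.65 (0.10 to 1.21) at 1 week. MASP1 was named after its value was seen, and both had an adjusted p of 1 in edgeR's test.

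Among the initiating components and proteases, the most abundant were C4A, a classical pathway component (12.8 ± 5.41 TPM, SD over 23 animals), the alternative pathway protease CFD (10.5 ± 2.71), and the collectins COLEC11 (7.09 ± 3.74) and COLEC12 (5.40 ± 1.74). C4A had log2 fold changes, psilocybin over saline, of -0.16 (-0.79 to 0.47) at 1 day and 0.29 (-0.30 to 0.88) at 1 week, and CFD of -0.08 (-0.45 to 0.30) and -0.17 (-0.54 to 0.20). The terminal components were scarce, with C8G at 3.10 ± 0.94, C9 at 1.58 ± 0.62, C7 at 0.98 ± 0.76 and C5 at 0.44 ± 0.17 TPM, and C8A, like the lectin MBL2, had a median count of 0. Of the regulators, CLU, the secreted chaperone clusterin, was far above every other complement gene at 2200 ± 231 TPM, with log2 fold changes of 0.13 (-0.08 to 0.33) at 1 day and -0.07 (-0.26 to 0.12) at 1 week. SUSD4 (19.6 ± 5.67 TPM), CSMD1 (4.05 ± 1.81) and VTN (2.80 ± 0.83) followed. Of the receptors, CD93 was at 7.67 ± 2.65, ITGB2 at 4.99 ± 1.14, VSIG4 at 2.65 ± 1.09 and C3AR1, the receptor of the C3a peptide, at 2.46 ± 0.95 TPM. C3AR1 had a log2 fold change of -0.64 (-1.29 to 0.01) at 1 day and of 0.20 (-0.42 to 0.82) at 1 week. CLU, CFD, COLEC11, C9, C5, ITGB2 and CSMD3 overlap other rows, so their counts can hold reads of those.

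**Figure D5:**
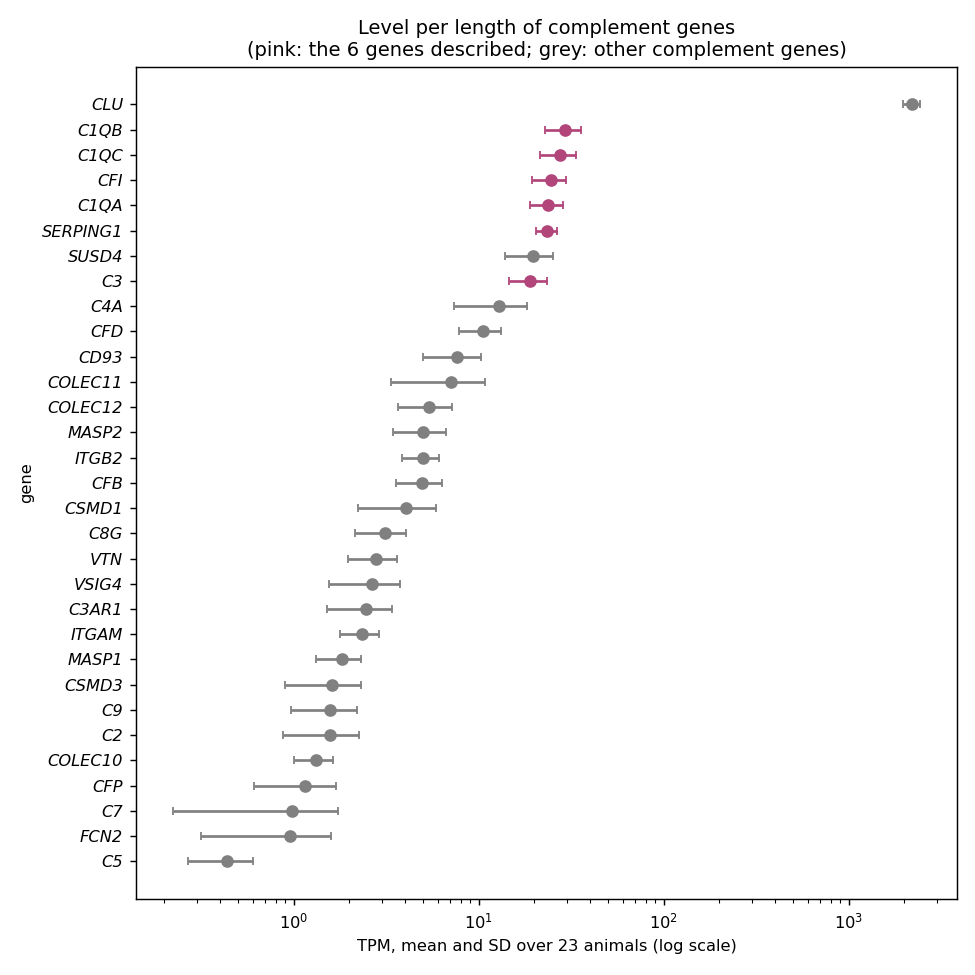
Mean level per length of listed exons in TPM, on a log axis, of the 6 complement genes (pink) and the 25 other complement genes tested (grey), with the SD over 23 animals. The 6 genes lie between 18.9 TPM (C3) and 29.2 TPM (C1QB), with CLU above them at 2200 TPM and SUSD4 among them at 19.6 TPM.

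Between the batches, 5 of these 25 genes were lower and 3 higher in batch 2, beside 16.8% and 16.1% of all genes. C9 (-0.82), C8G (-0.62), CFD (-0.41), ITGB2 (-0.38) and CLU (-0.21) were lower on the log2 scale, and CSMD1 (0.73) was higher. CSMD3 (0.69) and MASP1 (0.34), named after their values were seen, were higher too.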

How the data were processed

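RNA of the prefrontal cortex was sequenced after poly-A selection, with 1 library per animal. Per the submitters' processing notes, fastp 0.20.0, STAR 2.6c, featureCounts 1.5.1 and the build susScr11 were used. The authors deposited expected counts per Ensembl gene: per the file headers, reads over several genes were split in fractions and strand was not used, so overlapping and antisense genes share reads. Of the values 72.2% were whole. Counts were rounded, which changed library totals by at most 0.0013%.

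Genes were kept by filterByExpr (minimum count 10, minimum total 15) and tested over all 23 libraries with edgeR 4.0.16 (R 4.3.3): TMM scaling, robust quasi-likelihood F test, a term per group and one for batch, two-sided, Benjamini-Hochberg adjusted over all genes, threshold 0.05. Correlations used log2 CPM with a prior count of 2. Symbols were found for 14857 identifiers. RefSeq places served for names, since its assembly Sscrofa11.1 is the one UCSC calls susScr11. Each choice was then varied: the scaling (RLE), the filter (none, or stricter), the tool (DESeq2 1.42.0, limma-voom of limma 3.58.1), robustness off, batch left out of the model, fits on the groups compared or on 1 batch, and libraries dropped. Methods were tested on simulated data.

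The members, lists and tests were chosen with earlier results of these data known. Named are the 9 members, of each other complement list up to 4 genes with the highest mean TPM and any gene past the threshold between groups, and the genes most like the C1q mean (5) and each other tested member (3). Outside this rule, MASP1 and CSMD3 and the microglia markers CX3CR1 and CSF1R were named for their values. No paired analysis was used. Sequences were not used here. The values of 1 microglia marker are not reported here.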

Additional observations from a re-analysis of the deposited data

Results flagged for a closer look

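Levels of the 6 complement genes and the 2 unnamed rows were searched, group by group, for an animal far from the others by Dixon's test at its 95% critical value. Of 32 groups searched, 2 were marked, and chance marks about 1 in 20. Batch was not taken out of these levels, each group holds animals of both batches, and the searches share libraries. The rate of 1 in 20 is therefore only a rough guide. SERPING1 was at 47.6 CPM in animal 1 of saline 1 week, with the next animal at 39.2 CPM. That library is one of the 3 that stood apart on the first principal component. Without it, the log2 fold change of SERPING1 at 1 week, psilocybin over saline, was -0.003 and that of batch 2 over batch 1 was -0.157, with an adjusted p of 0.0672 in edgeR's test. ENSSSCG00000029371 was at 4.46 CPM in animal 4 of psilocybin 1 week, with the next animal at 7.31 CPM. That animal is in batch 2, where this row averaged 6.35 CPM, against 8.34 CPM in batch 1.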

How the results depend on the processing

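The count of members that passed stayed at 0 in every alternative of the 6 comparisons between groups. The 5 members lower in batch 2 became 3 with no filter on low counts, 3 without the 3 libraries standing apart, and 3 to 5 when each animal was left out, with 3 without animal 1 of saline 1 week. The calls of C1QA, C1QB and C1QC held in all 30 alternatives (adjusted p at most 0.00491 with edgeR, DESeq2 or limma). C3 lost its call with no filter (-0.282, adjusted p 0.0655) and without any of animals 3 and 4 of psilocybin 1 day, 3 and 6 of psilocybin 1 week, 2, 3 and 5 of saline 1 day, or 1, 2 and 5 of saline 1 week (-0.232 to -0.297, adjusted p up to 0.102). SERPING1 lost its call with no filter (-0.175, adjusted p 0.0588) and without animal 1 of psilocybin 1 day (-0.153), of psilocybin 1 week (-0.175) or of saline 1 week (-0.157). The causes were not tested.

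The 10 pairs whose r passed became 6 without the 2 farthest animals, 7 in batch 2 alone and 3 in batch 1 alone; these use fewer animals.

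Treatment log2 fold changes, none of which passed, changed sign as follows. At 1 day C1QC was 0.043 with no batch term and 0.012 in batch 1 alone; C3 was -0.110 in batch 1 alone and -0.087 without the 3 libraries; SERPING1 was -0.061 in batch 2 alone and -0.028 without the 3 libraries; CFI was -0.024 in batch 2 alone. At 1 week C1QA was -0.030 and SERPING1 0.032 in batch 1 alone, and SERPING1 was 0.050 without the 3 libraries. With each animal left out, the 1 day values ranged from -0.174 to 0.016 for C1QA, -0.134 to 0.040 for C1QB, -0.086 to 0.086 for C1QC, -0.086 to 0.159 for C3 and -0.046 to 0.076 for SERPING1. The 1 week values ranged from -0.011 to 0.174 for C1QA and -0.011 to 0.161 for C1QC, and CFI between batches from -0.002 to 0.100. No paired analysis was possible because animal numbers are not shared between groups. With 5 or 6 animals a group, differences within the intervals given remain possible. The intervals are not limits of detection. A call needed an adjusted p under 0.05 over all genes tested, so larger differences can also go uncalled.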
